A study of Mus musculus with 6 samples.

Results

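The inducible acute-phase genes of the liver were followed in livers without the actin-binding protein profilin 2 (Pfn2-/-) and in wild-type livers. The set comprised 10 genes: the serum amyloid A genes Saa1, Saa2, Saa3 and Saa4, the orosomucoid genes Orm1, Orm2 and Orm3, the lipocalin gene Lcn2, the cytokine feedback gene Socs3 and the serpin gene Serpina3n. A member was taken as a row of the expression table annotated with exactly 1 gene symbol, and of several such rows for a gene the brightest on average over the 6 arrays was used. This gave 9 members among 22180 genes. Saa1 had no row of its own, and 1 row annotated to both Saa1 and Saa2 is described beside them.

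The 6 Affymetrix arrays came from 3 Pfn2-/- and 3 wild-type animals of strain C57BL/6, each an independent biological replicate. Replicates 1, 2 and 3 were 9, 8.5 and 8 months old in Pfn2-/- animals and likewise in wild type. The labels name no treatment, and neither the kind of Pfn2 allele nor the sex of the animals is stated. Expression is given as RMA values in log2 units, with array medians of 4.36 to 4.41, so a difference of 1 is a doubling. All differences below are Pfn2-/- minus wild type, with the standard error (SE) of a limma fit over all genes and Benjamini-Hochberg adjusted p-values, the adjustment covering all 22180 genes. With 3 arrays a genotype, their number limits the precision.

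The acute phase is the response of the liver to infection, injury and inflammation. Interleukin-6 acts through STAT3, and interleukin-1 and tumour necrosis factor act through NF-kB, on hepatocytes, which then secrete plasma proteins such as serum amyloid A, with C/EBP factors and glucocorticoids taking part. In mice, serum amyloid A1 and A2 are carried on high-density lipoprotein and are among the most inducible plasma proteins, whereas Saa4 is the constitutive form of the family. Orosomucoids are plasma glycoproteins that bind drugs and lipids, lipocalin 2 binds bacterial iron carriers, Serpina3n inhibits serine proteases, and Socs3 encodes the inhibitor that ends interleukin-6 signalling.

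The arrays carried the marks of liver. Of 14 hepatocyte markers 13 were measured, and their mean log2 level was 10.94 to 11.01 in Pfn2-/- arrays and 10.95 to 11.20 in wild-type arrays. The row of Pfn2 lay at 3.88, 3.81 and 3.93 in Pfn2-/- arrays and at 4.02, 3.85 and 4.09 in wild-type arrays, a difference of -0.11 (SE 0.12). It was dim in both genotypes and could not check the genotype labels. Which stretch of the transcript its probes match is unknown here. In whole tissue, fewer cells of a type and less RNA per cell cannot be told apart.

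Saa2, Orm2, Orm3 and Lcn2 lay above every wild-type array in Pfn2-/- replicates 1 and 3 but not in Pfn2-/- replicate 2, and Saa3 did so in all 3 Pfn2-/- arrays. Orm1 and Serpina3n had the same pattern as Saa2, by smaller margins. Of the 9 measured members, 5 had a log2 difference of 1 or more (Saa2, Orm2, Orm3, Saa3 and Lcn2), against 0.0857% of all genes in that direction. The other 4 members (Saa4, Socs3, Orm1 and Serpina3n) had differences of 0.12 to 0.22, each smaller than or close to its standard error. The median difference of the members was 1.11, and that of all genes was 0. All 9 members had a difference above 0, as did 49.3% of all genes. With limma, 0 of the 9 members passed an adjusted p of 0.05, against 0% of all genes. At an unadjusted p under 0.05 there were 3 members, Saa2, Saa3 and Lcn2, all higher in Pfn2-/-, against 5.29% of all genes in either direction, 2.67% higher and 2.62% lower in Pfn2-/-. The members were chosen with earlier results of these data known. These shares and medians therefore describe the members and are not a test of the set.

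**Figure D1:**
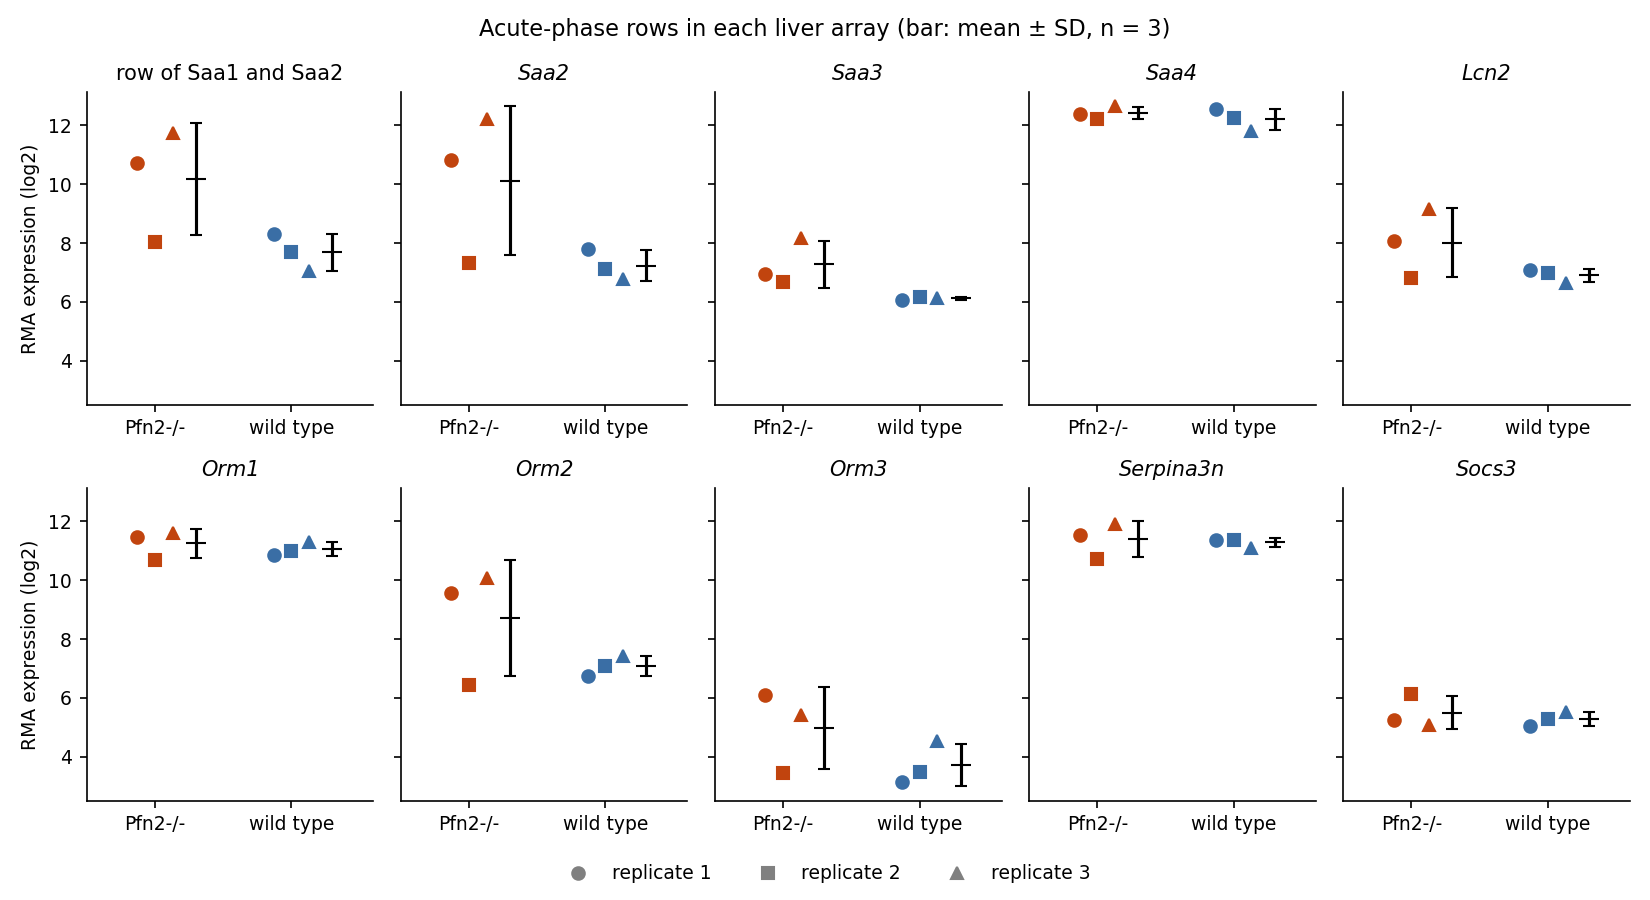
RMA expression on the log2 scale of the 9 members, and of the row annotated to both Saa1 and Saa2, in each array. Symbols mark replicates 1 to 3 of Pfn2-/- (left, red) and wild-type animals (right, blue), and black bars give the mean ± SD of 3 arrays. In the Saa2, Orm2 and Lcn2 panels, Pfn2-/- replicates 1 and 3 lie above all wild-type arrays and Pfn2-/- replicate 2 lies among or below them.

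Among the serum amyloid A genes, Saa2 lay at 10.83, 7.31 and 12.22 in Pfn2-/- replicates 1, 2 and 3, against 7.80, 7.11 and 6.76 in wild-type replicates 1, 2 and 3. Pfn2-/- replicates 1 and 3 stood far above every wild-type array, whereas Pfn2-/- replicate 2 fell within the wild-type range, so the genotypes overlapped. The means were 10.12 ± 2.53 in Pfn2-/- and 7.22 ± 0.53 in wild type (SD, n = 3 each), a 7.45-fold ratio (difference 2.90, SE 0.96, 95% confidence interval 0.74 to 5.05, limma adjusted p = 0.876). Over all 22180 genes ordered by an array's excess over the wild-type mean, Saa2 took place 1 in Pfn2-/- replicate 3, place 3 in Pfn2-/- replicate 1 and place 7446 in Pfn2-/- replicate 2.

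The row annotated to both Saa1 and Saa2 gave the same picture, at 10.73, 8.05 and 11.74 in Pfn2-/- replicates 1, 2 and 3 and at 8.30, 7.71 and 7.05 in wild-type replicates 1, 2 and 3. Its difference was 2.49 (SE 0.76, 95% confidence interval 0.77 to 4.20, adjusted p = 0.898 over all 34390 rows). Pfn2-/- replicate 2 again lay inside the wild-type range. The row cannot be given to either gene, and the Saa2 row itself may take signal from Saa1, since the paralogs are close.

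Saa3, which in mice is made by macrophages and adipocytes as well as by inflamed liver, was the member with the smallest p. It lay at 6.95, 6.69 and 8.18 in Pfn2-/- replicates 1, 2 and 3, and at 6.07, 6.16 and 6.12 in wild-type arrays. All Pfn2-/- arrays, replicate 2 included, lay above all wild-type arrays, which were close to each other. The difference was 1.16, a 2.23-fold ratio (SE 0.32, 95% confidence interval 0.45 to 1.86, unadjusted p = 0.00454, limma adjusted p = 0.780). In the rows used, Saa3 was the sole member without overlap between the genotypes. Of all genes 9.85% were without overlap, 5.09% higher and 4.76% lower in Pfn2-/-.

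Saa4, the constitutive paralog, lay at 12.40, 12.22 and 12.65 in Pfn2-/- arrays and at 12.54, 12.26 and 11.82 in wild-type arrays. Its row was near the top of the scale of the array in every animal, and the genotypes overlapped throughout. The difference was 0.22 (SE 0.19, 95% confidence interval -0.21 to 0.65), and it was 0.38 without wild-type replicate 1 and 0.02 without wild-type replicate 3.

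The sequences before the transcription starts of the 4 serum amyloid A genes are shown for what the paralogs share. They are the 250 bases upstream of 1 start for each gene from RefSeq (GRCm38.p6), 5′ to 3′ on the gene's strand, with matches to the C/EBP motif TTGCNNAA on either strand in capitals. The annotated span of Saa3 reaches further upstream than the start used, so its sequence lies inside that span. They span chr7:46742981-46743230 (minus strand) for Saa1, chr7:46751583-46751832 (plus strand) for Saa2, chr7:46715677-46715926 (minus strand) for Saa3 and chr7:46732604-46732853 (minus strand) for Saa4.
Saa1: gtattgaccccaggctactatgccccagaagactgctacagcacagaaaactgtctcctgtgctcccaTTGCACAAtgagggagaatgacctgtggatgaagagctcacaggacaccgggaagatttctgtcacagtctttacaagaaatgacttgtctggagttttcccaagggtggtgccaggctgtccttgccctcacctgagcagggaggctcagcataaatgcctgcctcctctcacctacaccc
Saa2: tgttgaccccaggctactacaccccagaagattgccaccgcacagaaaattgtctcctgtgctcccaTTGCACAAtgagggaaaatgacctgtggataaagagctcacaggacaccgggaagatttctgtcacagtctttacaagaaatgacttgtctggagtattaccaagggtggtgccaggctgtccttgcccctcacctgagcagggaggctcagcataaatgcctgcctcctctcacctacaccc
Saa3: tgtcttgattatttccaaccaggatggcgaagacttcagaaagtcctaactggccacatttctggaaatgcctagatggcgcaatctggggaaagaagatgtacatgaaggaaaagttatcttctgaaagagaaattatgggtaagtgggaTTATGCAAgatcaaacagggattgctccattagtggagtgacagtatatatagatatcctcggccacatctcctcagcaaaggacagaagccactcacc
Saa4: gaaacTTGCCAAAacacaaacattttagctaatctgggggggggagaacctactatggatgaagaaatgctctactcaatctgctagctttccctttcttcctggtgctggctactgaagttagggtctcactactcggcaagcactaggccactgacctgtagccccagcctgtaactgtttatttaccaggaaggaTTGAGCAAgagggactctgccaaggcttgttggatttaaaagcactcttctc
The Saa1 and Saa2 sequences were identical at 238 of 251 aligned positions (94.8%). Saa2 shared 51.8% with Saa3 and 46.7% with Saa4. The motif lay at -182 in Saa1 and at -183 in Saa2 with the same 8 letters, TTGCACAA, at -99 in Saa3, and at -245 and -52 in Saa4, counted to the first base of the match from the transcription start. A match is a description of letters and not a bound site.

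**Figure D2:**
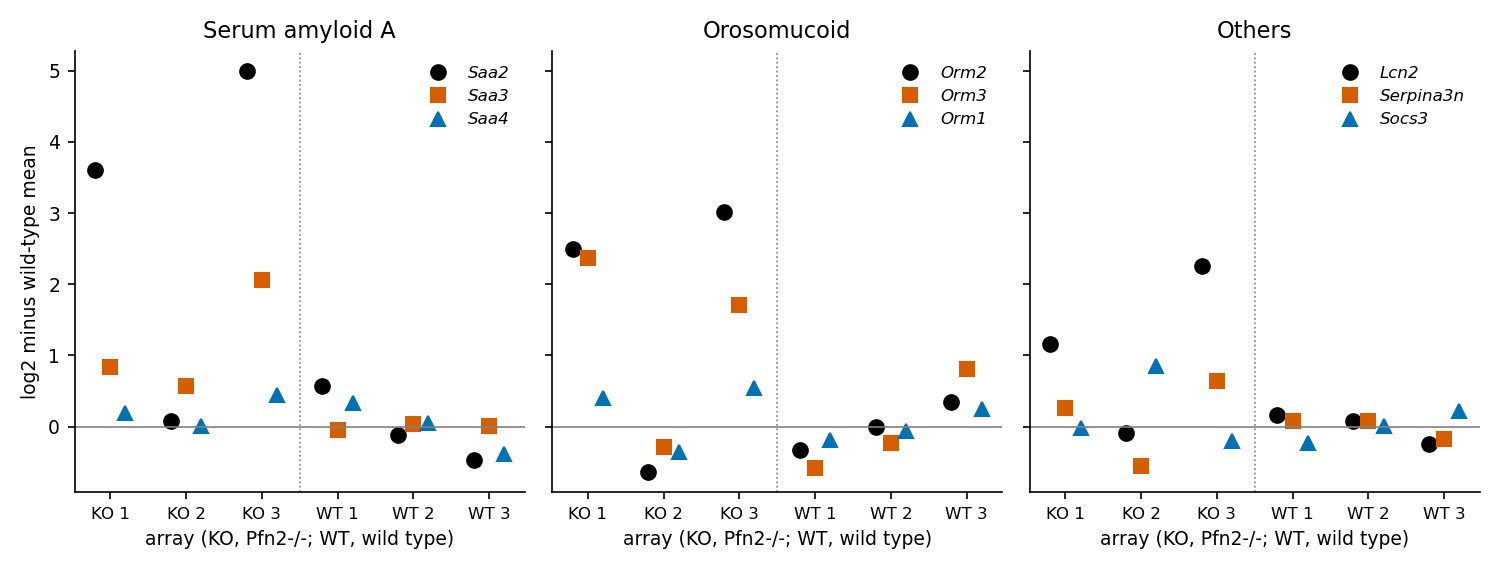
Log2 expression in each array minus the wild-type mean of the same gene, for the serum amyloid A genes, the orosomucoid genes and the 3 other members. Pfn2-/- arrays (KO) are left of the dotted line and wild-type arrays (WT) right of it. Saa2 is highest in Pfn2-/- replicate 3, and Socs3 is highest in Pfn2-/- replicate 2.

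Orm2 had the largest difference of the orosomucoid genes. It lay at 9.58, 6.44 and 10.09 in Pfn2-/- replicates 1, 2 and 3, and at 6.75, 7.07 and 7.42 in wild-type arrays. Pfn2-/- replicates 1 and 3 were above, and Pfn2-/- replicate 2 below, every wild-type array. The difference was 1.62, a 3.08-fold ratio (SE 0.75, 95% confidence interval -0.06 to 3.30, limma adjusted p = 0.920).

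Orm3 was dim, at 6.08, 3.43 and 5.42 in Pfn2-/- arrays and at 3.13, 3.48 and 4.52 in wild-type arrays, where the lower quartile over all rows of an array was 3.51 to 3.57. Pfn2-/- replicates 1 and 3 lay above all wild-type arrays and Pfn2-/- replicate 2 lay among them. The difference of 1.27 (SE 0.59, limma adjusted p = 0.920) is therefore not exact in size. Orm1 lay at 11.46, 10.70 and 11.60 in Pfn2-/- arrays and at 10.87, 10.99 and 11.31 in wild-type arrays. It kept the order of Orm2 within Pfn2-/-, with replicate 2 the lowest and replicate 3 the highest, over a span of 0.90 against 3.65 for Orm2. The difference of Orm1 was 0.20 (SE 0.23, limma adjusted p = 0.967), and it was 0.47 without Pfn2-/- replicate 2 and 0.02 without Pfn2-/- replicate 3. The 3 orosomucoid genes are close paralogs, and probes of each row may take signal from the others.

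No upstream sequence was found for Orm1. The sequences upstream of Orm2 (chr4:63362199-63362448, plus strand) and Orm3 (chr4:63355908-63356157, plus strand) are shown, with the same build and marks as above.
Orm2: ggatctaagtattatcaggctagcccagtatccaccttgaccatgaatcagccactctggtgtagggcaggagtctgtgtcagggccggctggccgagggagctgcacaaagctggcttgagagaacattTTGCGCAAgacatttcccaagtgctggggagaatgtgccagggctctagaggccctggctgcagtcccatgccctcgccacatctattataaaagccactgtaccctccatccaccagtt
Orm3: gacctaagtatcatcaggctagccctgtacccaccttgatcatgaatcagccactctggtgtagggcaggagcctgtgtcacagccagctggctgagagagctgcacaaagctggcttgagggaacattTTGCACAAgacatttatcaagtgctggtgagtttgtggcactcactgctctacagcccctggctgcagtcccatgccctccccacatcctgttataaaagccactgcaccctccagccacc
They were identical at 219 of 255 aligned positions (85.9%). The C/EBP motif lay at -120 in Orm2, as the palindrome TTGCGCAA, and at -121 in Orm3, as TTGCACAA.

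Lcn2 lay at 8.06, 6.81 and 9.15 in Pfn2-/- replicates 1, 2 and 3, and at 7.07, 6.98 and 6.65 in wild-type arrays. As for Saa2, Pfn2-/- replicates 1 and 3 were above all wild-type arrays and Pfn2-/- replicate 2 fell among them. The difference was 1.11, a 2.15-fold ratio (SE 0.46, 95% confidence interval 0.09 to 2.12, unadjusted p = 0.0360, limma adjusted p = 0.920). Its upstream sequence (chr2:32387740-32387989, minus strand, GRCm38.p6) is printed with the same marks.
Lcn2: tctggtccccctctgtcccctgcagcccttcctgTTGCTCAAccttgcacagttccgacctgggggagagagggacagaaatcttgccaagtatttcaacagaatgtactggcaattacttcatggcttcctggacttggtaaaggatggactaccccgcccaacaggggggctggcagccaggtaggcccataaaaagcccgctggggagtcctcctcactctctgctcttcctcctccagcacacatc
The motif lay at -216 as TTGCTCAA. Upstream sequences were found for 9 of the 10 listed genes, all but Orm1. TTGCNNAA was present in 7 of the 9, in all but Socs3 and Serpina3n, against 9.56% of 32851 upstream sequences of the same length. The motif TTCNNNGAA, the core bound by STAT factors, was present in 1 of the 9, at -154 in Socs3, against 7.02% of all sequences. A strict form of the NF-kB motif (GGGA, any 3 bases, TCC) was present in 0 of the 9, against 3.86%. Looser forms were not searched, and with so rare a pattern 0 of 9 does not show that NF-kB sites are absent. Both strands were searched, before 1 start for each of the 9 genes, and no 2 motifs overlapped in their sequences. The 32851 sequences came from 27025 genes, some with more than 1 start, so the shares are per sequence and not per gene. The annotated spans of Saa3, Orm3, Socs3 and Serpina3n reach further upstream than the start used, and other starts of these genes were not searched. The C/EBP letters were set after the Saa1 and Saa2 sequences had been seen, so the matches in these genes were known beforehand. The paralog pairs Saa1 and Saa2, and Orm2 and Orm3, are not separate observations. The count of C/EBP matches is therefore a description and not a test.

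Serpina3n and Socs3 did not follow Saa2 in size. Serpina3n lay at 11.55, 10.73 and 11.92 in Pfn2-/- arrays and at 11.37, 11.37 and 11.11 in wild-type arrays. Its Pfn2-/- arrays held the order of Saa2, but replicate 2 was the lowest of all 6 arrays, and the difference was 0.12 (SE 0.26, limma adjusted p = 0.991). Socs3 lay at 5.26, 6.13 and 5.08 in Pfn2-/- replicates 1, 2 and 3 and at 5.05, 5.29 and 5.51 in wild-type arrays, a difference of 0.21 (SE 0.25, limma adjusted p = 0.972). Its highest value was in Pfn2-/- replicate 2, the array where Orm2, Orm1 and Serpina3n were lowest. The other row of Socs3, which was dimmer, was also highest in Pfn2-/- replicate 2, at 3.93, 4.24 and 3.84 in Pfn2-/- arrays and 3.78, 3.67 and 3.54 in wild-type arrays (difference 0.34, SE 0.15, adjusted p = 0.934 over all rows).

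**Figure D3:**
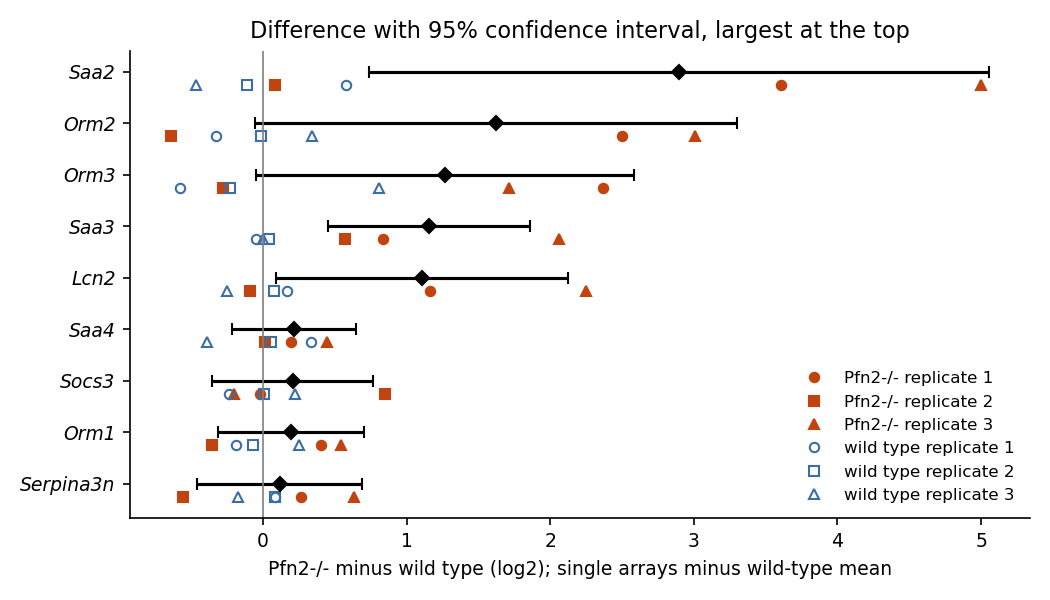
Log2 difference, Pfn2-/- minus wild type, of each member with its 95% confidence interval from limma (black), ordered from the largest difference at the top to the smallest. Coloured symbols under each interval give single arrays minus the wild-type mean. The intervals of Saa2, Saa3 and Lcn2 lie above 0, and those of the other 6 members include 0.

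By the size of the difference the order was Saa2, Orm2, Orm3, Saa3, Lcn2, Saa4, Socs3, Orm1 and Serpina3n. Saa2 came first in Pfn2-/- replicates 1 and 3, and Orm2 came next in both. In Pfn2-/- replicate 2 Socs3 came first and Orm2 last. Members 1 or more above the wild-type mean numbered 4 in Pfn2-/- replicate 1, 0 in Pfn2-/- replicate 2 and 5 in Pfn2-/- replicate 3, where 0.252%, 0.171% and 0.28% of all genes did so. They numbered 0 in each wild-type array, against 0.0135%, 0.0451% and 0.122% of all genes in replicates 1, 2 and 3. Each wild-type array is part of the mean it is set against, which makes its own excess smaller, so the genotypes cannot be compared by these counts.

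Whether neighbours in this order differ could not be settled with 3 arrays a genotype. Within each array, 13 pairs of members were compared by an exact permutation test over the 6 arrays, two-sided, which cannot give less than p = 0.1, and neighbours were taken from the same differences that set the order. In 12 of the 13 pairs the genotypes overlapped. The difference of Saa2 exceeded that of Orm2 by 1.27 (exact p = 0.2), and that of Orm2 exceeded that of Orm3 by 0.36 (exact p = 0.7). Among paralogs, the difference of Saa3 exceeded that of Saa4 by 0.94, and this was the 1 pair without overlap between the genotypes (exact p = 0.1, adjusted p = 0.65). The difference of Saa2 exceeded that of Saa4 by 2.68 (exact p = 0.2) and that of Saa3 by 1.74 (exact p = 0.4). The difference of Orm2 exceeded that of Orm1 by 1.43 (exact p = 0.4), and that of Orm3 exceeded that of Orm1 by 1.07 (exact p = 0.2). Adjusted over the 13 pairs, p was 0.65 to 1.

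The size of these differences depended on single arrays. Without Pfn2-/- replicate 2, Saa2 differed by 4.30 (limma adjusted p = 0.0169) and Orm2 by 2.755 (limma adjusted p = 0.00794), and 7 members reached an unadjusted p under 0.05, against 6.57% of all genes. In that fit 3 of all 22180 genes passed an adjusted p of 0.05, Saa2 and Orm2 among them. Without Pfn2-/- replicate 3, Saa2 differed by 1.85, Orm2 by 0.93, Saa3 by 0.70 and Lcn2 by 0.535, and 2 members, Saa2 and Saa3, had an unadjusted p under 0.05, against 5.84% of all genes. Without Pfn2-/- replicate 1 this count was 1, Saa3, against 4.37% of all genes, with Orm2 at 1.19 and Orm3 at 0.715. Orm3 differed by 2.04 without Pfn2-/- replicate 2. Without wild-type replicates 1 and 2 in turn the count was 2, Saa2 and Saa3, against 4.08% and 4.02% of all genes. Without wild-type replicate 3 it was 3, against 7.03% of all genes. Saa3 was the member that had an unadjusted p under 0.05 with any of the 6 arrays left out.

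Further genes of the acute phase had differences on both sides of 0. Of 24 measured genes known to go up in the acute phase, 17 had a difference above 0, with a median of 0.09, and at an unadjusted p under 0.05 there were 0 higher and 1 lower. Haptoglobin (Hp), which binds free haemoglobin, lay at 12.05, 11.96 and 12.12 in Pfn2-/- arrays and at 11.92, 11.77 and 11.70 in wild-type arrays. The groups did not overlap, and the difference was 0.25 (SE 0.12, limma adjusted p = 0.935). Fgl1, a fibrinogen-like secreted protein of hepatocytes, lay at 10.89, 9.96 and 11.28 in Pfn2-/- arrays and at 10.23, 10.37 and 10.27 in wild-type arrays (difference 0.42, SE 0.28). As in Orm2, its Pfn2-/- replicates 1 and 3 were above and its replicate 2 below every wild-type array. The haem carrier gene Hpx differed by 0.09 (SE 0.15) and the fibrinogen gene Fgb by 0.09 (SE 0.13). The endotoxin receptor gene Cd14 was the lower gene, at 4.13, 4.08 and 4.13 in Pfn2-/- arrays and 4.75, 4.96 and 4.18 in wild-type arrays (difference -0.52, SE 0.19, limma adjusted p = 0.915). The metallothionein genes Mt1 and Mt2, which bind zinc, had the lowest differences of the list, -0.83 (SE 0.60) and -0.99 (SE 0.75), with wide errors.

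Of 16 measured genes known to go down in the acute phase, 5 had a difference above 0, and the median was -0.04. The 1 gene at an unadjusted p under 0.05 was the drug-metabolising cytochrome Cyp3a11, which was higher in Pfn2-/- (0.38, SE 0.14). The tyrosine aminotransferase gene Tat differed by -0.27 (SE 0.14) and the coagulation factor gene F12 by -0.23 (SE 0.12). Of the Serpina3 clade, 4 of 10 listed genes had rows of their own. Serpina3a, Serpina3b and Serpina3i were dim and differed by 0.20 (SE 0.14), 0.12 (SE 0.15) and 0.05 (SE 0.19).

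Of 23 measured genes of the interleukin-6 and STAT3 pathway, 1 was higher and 2 were lower at an unadjusted p under 0.05, with a median of -0.00333. The interleukin-6 receptor gene Il6ra lay at 8.14, 8.14 and 8.65 in Pfn2-/- arrays and at 9.22, 9.12 and 8.39 in wild-type arrays, a difference of -0.60 (SE 0.23, limma adjusted p = 0.915). Its shared signalling chain Il6st differed by 0.03 (SE 0.13) and Stat3 by -0.00333 (SE 0.13). Bcl3, a nuclear partner of NF-kB, differed by 0.39 (SE 0.15) and the kinase gene Pim3 by -0.43 (SE 0.17).

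Of 24 measured genes of the interleukin-1, tumour necrosis factor and NF-kB pathway, 1 was higher and 1 lower at an unadjusted p under 0.05, with a median of -0.02. The receptor subunit gene Il1rap differed by 0.29 (SE 0.13) without overlap, the endotoxin receptor gene Tlr4 by -0.44 (SE 0.16) and the signalling adaptor gene Traf6 by -0.20 (SE 0.12).

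Of 10 measured C/EBP, glucocorticoid and liver factors, 0 were higher and 2 lower at an unadjusted p under 0.05, with a median of -0.10. Cebpb, which encodes a C/EBP factor of the acute phase, lay at 6.75, 6.33 and 6.79 in Pfn2-/- arrays and at 7.08, 6.96 and 7.19 in wild-type arrays. The groups did not overlap, and the difference was -0.45 (SE 0.15, limma adjusted p = 0.882). Cebpd differed by -0.26 (SE 0.20). The glucocorticoid-responsive gene Fkbp5 lay at 5.35, 5.44 and 6.34 in Pfn2-/- arrays and at 7.37, 7.29 and 6.06 in wild-type arrays (difference -1.20, SE 0.36, limma adjusted p = 0.791), and the clock gene Per1, which glucocorticoids also induce, differed by -0.43 (SE 0.21). Over these pathway and plasma protein lists 9 of 101 genes (8.91%) had an unadjusted p under 0.05, against 5.29% of all genes. Without wild-type replicates 1, 2 and 3 in turn there were 5, 3 and 16, against 4.08%, 4.02% and 7.03% of all genes.

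**Figure D4:**
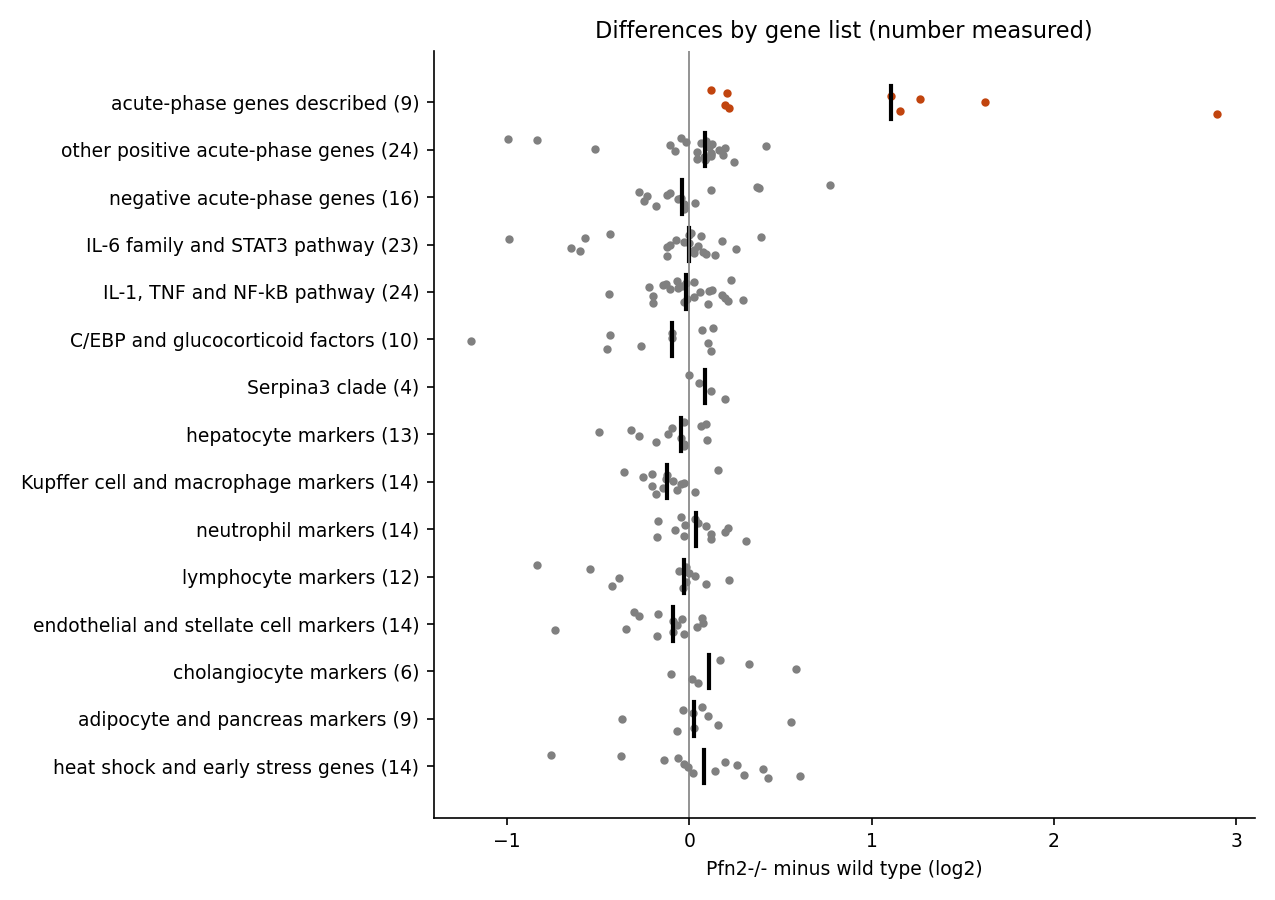
Log2 differences, Pfn2-/- minus wild type, of the measured genes of each list (points) with the list's median (black bar). The 9 members, in red, have a median of 1.11, and the medians of the other lists lie between -0.125 and 0.11.

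Markers of other cells that liver can hold are given beside these values, and their part in them was not tested. All 14 neutrophil markers were measured, and their mean log2 level was 3.89 to 4.01 in Pfn2-/- arrays and 3.90 to 3.94 in wild-type arrays, with 0 at an unadjusted p under 0.05. These means lay below the array medians of 4.36 to 4.41, and at such dim levels a difference could be missed. Of the 14 neutrophil markers, 8 had a difference above 0, with a median of 0.04 and a range of -0.18 (Ly6g) to 0.31 (S100a8). The 3 of smallest p were Retnlg (0.21, SE 0.13), S100a8 (0.31, SE 0.20) and Cxcr2 (0.20, SE 0.14). All 14 Kupffer cell and macrophage markers were measured, with a mean log2 level of 7.08 to 7.15 in Pfn2-/- arrays and 6.98 to 7.62 in wild-type arrays, the highest in wild-type replicate 2. Of these 14 markers, 2 had a difference above 0, Folr2 (0.16, SE 0.19) and Timd4 (0.03, SE 0.13), and the median was -0.125. The 3 of smallest p were the scavenger receptor gene Cd163 (-0.36, SE 0.14), C1qa (-0.26, SE 0.18) and Clec4f (-0.18, SE 0.17).

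The other marker lists were lymphocytes (12 of 14 measured, median difference -0.03), endothelial and stellate cells (14 of 14, -0.09), cholangiocytes (6 of 8, 0.11) and adipocytes and pancreas (9 of 12, 0.03). Lymphocyte markers ranged from -0.83 (Jchain, of plasma cells, SE 0.24) to 0.22 (Cd4, SE 0.27), with 3 of 12 above 0. Cd79a differed by -0.39 (SE 0.18) and Gzma by -0.54 (SE 0.34), and Cd3d and Cd79b by 0.09 and 0.03. Endothelial and stellate cell markers ranged from -0.74 (Lyve1, SE 0.61) to 0.08 (Lrat, SE 0.12), with 3 of 14 above 0. Col3a1, Pdgfrb and Pecam1, the 3 of smallest p, differed by -0.30, -0.28 and -0.35. The bile duct genes Sox9, Cftr and Muc1 differed by 0.58, 0.33 and 0.17, and Krt19, Krt7 and Epcam by 0.05, 0.02 and -0.10. Cftr and Gzma were dim, with means of 2.97 and 2.98 in Pfn2-/- and 2.65 and 3.52 in wild type. The differences of Cftr and Gzma are therefore not exact in size. The differences of the fat genes Cidec, Fabp4 and Lep were 0.56, -0.37 and 0.16. Of the 13 measured hepatocyte markers 3 had a difference above 0, the highest Apob at 0.10 (SE 0.11), and the median was -0.04. Ass1 differed by -0.49 (SE 0.18) and Arg1 by -0.32 (SE 0.13). None of these genes passed an adjusted p of 0.05.

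Heat shock and early stress genes were highest on average in Pfn2-/- replicate 3. Centred gene by gene, the mean of the 14 genes was -0.31, -0.15 and 0.56 in Pfn2-/- replicates 1, 2 and 3, and -0.09 to 0.07 in wild-type arrays. The chaperone gene Hspa1b lay at 5.93, 5.51 and 8.65 in Pfn2-/- replicates 1, 2 and 3, against 5.52, 6.38 and 6.37 in wild-type arrays. The cell cycle inhibitor gene Cdkn1a lay at 5.27, 5.16 and 8.30 in Pfn2-/- arrays, against 6.69, 6.52 and 5.60 in wild-type arrays. Hspa1a, Bag3 and Hsph1 were also highest in Pfn2-/- replicate 3, at 5.25, 8.45 and 8.17, whereas Gadd45b and Myc were not. Between the genotypes, Hsp90aa1 differed by 0.40 (SE 0.12) without overlap, Gadd45b by -0.38 (SE 0.13) without overlap and Myc by -0.76 (SE 0.49). Pfn2-/- replicate 1, where Saa2 and Orm2 were also high, had the lowest mean of this list. The part of these genes in the values of the acute-phase genes was not tested.

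The genes whose profile lay nearest to the mean acute-phase profile were found by the root mean square difference over the 6 arrays, after each gene was centred on its own mean. The mean profile of the 9 members was 0.77, -0.53 and 1.23 in Pfn2-/- replicates 1, 2 and 3, and -0.51, -0.50 and -0.45 in wild-type replicates 1, 2 and 3. The nearest 10 genes outside the set were Ugt2b37, Cidea, Gm3219, 2010106E10Rik, Vmn1r103, Fgl1, Cyp2c53-ps, Bhmt, Dio1 and Golm2, at distances of 0.25 to 0.33 on the log2 scale. Ugt2b37, of the glucuronosyltransferase family, lay at 4.68, 3.77 and 5.22 in Pfn2-/- arrays and at 3.38, 3.66 and 3.07 in wild-type arrays. The deiodinase gene Dio1 lay at 8.01, 7.20 and 8.60 in Pfn2-/- arrays and at 7.18, 6.94 and 7.81 in wild-type arrays. Of the 10, Fgl1 was the sole gene that also stood on a list of acute-phase or cytokine genes. Among the members themselves, Orm1 and Serpina3n lay nearest to each other (0.24), and Saa2 and Socs3 farthest apart (2.28). The member nearest to the mean profile was Lcn2, at 0.26. All 6 arrays enter each distance, and several of these rows were dim.

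**Figure D5:**
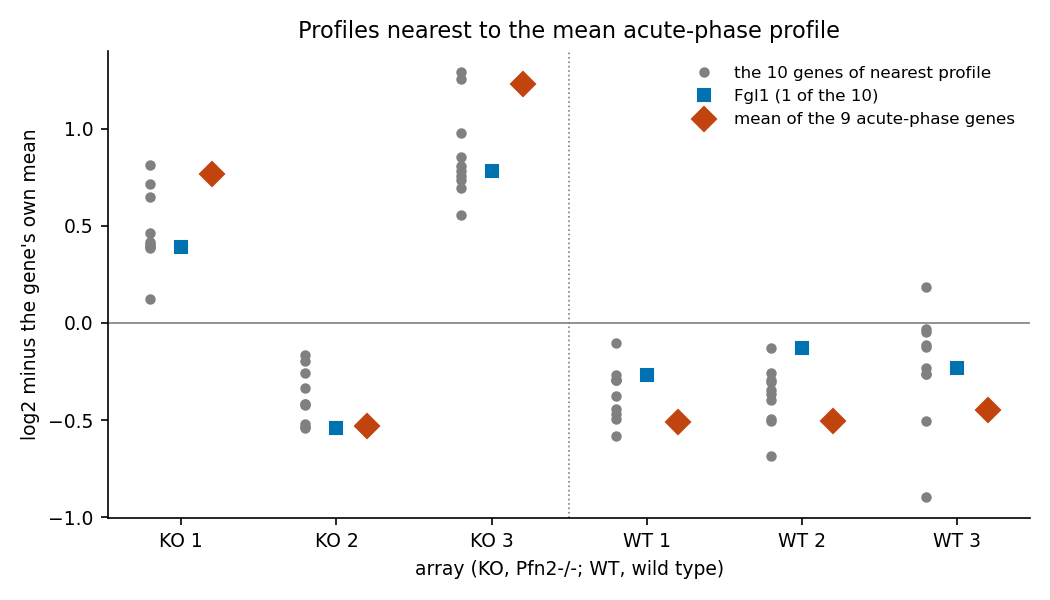
Log2 expression in each array minus the gene's own mean over the 6 arrays, for the mean of the 9 members (red diamonds), for Fgl1 (blue squares) and for the 10 genes of nearest profile (grey points). Pfn2-/- arrays (KO) are left of the dotted line and wild-type arrays (WT) right of it. The member mean is 0.77 and 1.23 in Pfn2-/- replicates 1 and 3 and -0.53 in replicate 2, where wild-type arrays lie at -0.51 to -0.45.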

How the data were processed

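Total RNA of whole liver was hybridised to 6 Affymetrix arrays after snap freezing, Trizol extraction and biotin labelling with the WT PLUS kit, per the labels' protocols. The values deposited by the authors are on the log2 scale and were made with RMA, per the submitters' processing notes, which also name limma. Versions and probe set level are unknown here. RMA corrects background, quantile normalizes and summarises probes, which compresses differences of dim rows. Of 34390 rows, 23521 had 1 gene symbol in the platform annotation, 1814 had several and 9055 are unnamed here, which left 22180 genes.

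The genotype fit used limma 3.58.1 under R 4.3.3 (lmFit and eBayes, two-sided, genotype as the sole term), adjusted by Benjamini-Hochberg over all genes, and the fit was tested on simulated data. Named genes were the members, list genes at an unadjusted p under 0.05 or the 3 of smallest p per list, 8 genes named whatever their values, and the 10 nearest profiles. Mt1, Mt2, Ly6g, Cd4, Cd3d, Cd79b, Krt19, Krt7, Epcam, Hspa1a, Hspa1b, Bag3, Hsph1, Cdkn1a, Folr2, Timd4, Lyve1, Lrat and Apob were added after their values were seen. Of 223 list symbols 200 were matched, older names through a reference gene table of GRCm38.p6. Promoters were aligned with Biopython 1.88 (match 1, mismatch -1, gap opening -2, extension -1). The members and lists were chosen with earlier results of these data known. The alternatives were other scaling, dim-gene filters, row choices, eBayes settings, weighting of arrays, a block for replicate number, age as a covariate and leaving out each array. No sample was left out of the comparison.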

Additional observations from a re-analysis of the deposited data

Results flagged for a closer look

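The row annotated to both Saa1 and Saa2 was not used in the comparison of genes, since it names more than 1 gene, and it carried a signal above the wild-type level in Pfn2-/- replicates 1 and 3. Its difference, Pfn2-/- minus wild type, was 2.49 on the log2 scale, with means of 10.17 ± 1.91 in Pfn2-/- and 7.69 ± 0.63 in wild type (SD, n = 3 each).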

How the results depend on the processing

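Of 170 values of single members under 19 alternatives, 168 kept their direction. With each array left out, Socs3 differed by -0.11 (without Pfn2-/- replicate 2) to 0.41, and Serpina3n by -0.14 (without Pfn2-/- replicate 3) to 0.45; the cause was not tested. Members past the adjusted threshold of limma numbered 0 under the 13 alternatives that keep all arrays and 0 to 2 with each array left out. Of all genes, 0 to 7 passed it with all arrays and 0 to 6 with each array left out. Members at an unadjusted p under 0.05 numbered 5 with array weights (7.22% of all genes), 1 with robust eBayes (5.29%) and 2 with the filter at the median (6.14%), which removed Orm3. The median difference of the members was 0.66 to 1.13 with all arrays and 0.535 to 1.45 with each array left out. The 0.66 came with the filter at the median, where 8 members remained and no order of all 9 could be given. Of the 9 members, 6 to 9 kept their place in the order with all arrays and 3 to 7 with each array left out. Pathway and plasma protein genes at an unadjusted p under 0.05 numbered 9 in the main comparison, 17 with array weights and 3 to 16 with each array left out. Of 114 counts by single list, 81 stayed within 1.5 times. Testing every row of the table was an alternative chosen after seeing the data.

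Over all genes, the replicate number, which goes with age, did not clearly pair the arrays. Deviations of same-numbered arrays from their group means correlated across genes at -0.08, 0.15 and 0.02, and 1 of 3 Pfn2-/- arrays correlated best with its own number. For single members pairing was not tested. With a block for replicate number the SE was 0.76 against 0.96 for Saa2, 0.57 against 0.75 for Orm2 and 0.45 against 0.59 for Orm3. For Saa4 it was larger, at 0.197 against 0.192. With the replicate block 0 members passed the adjusted threshold, 7 of all genes did against 0 without it, and 5 members had an unadjusted p under 0.05 (5.73% of all genes) against 3 without it (5.29%).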
